A study of Homo sapiens with 6 samples.

Results

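Messages of 10 genes of the translation machinery were followed in thyroid cancer cells after knockdown of GDF15, a secreted cytokine of the TGF-β family. The 10 genes were EEF1A1, EEF1B2, EEF1D, EEF1G, EEF2, EIF3E, EIF4B, PABPC1, TPT1 and NPM1. They were taken by symbol from a table of 34738 genes, with no threshold on their values but with earlier results of these data known, and all 10 had a row and were tested among 11867 genes with a mean FPKM (fragments scaled by the exon length of the gene and by the fragments of the library) of at least 1. The labels name the cells KHM-5M, a human thyroid cancer line, and the text of the study names TPC-1 in one figure legend. Cells of the siGDF15 group received small interfering RNA against GDF15 (3 libraries). Cells of the NC group (3 libraries) are a blank control in the deposited design and negative control cells in the study's methods. If the NC cells received no siRNA, transfection and loss of GDF15 cannot be told apart. The study's methods call the 3 libraries of a group biological replicates, and the labels do not say whether they came from separate cultures.

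A 5′ terminal oligopyrimidine (TOP) message begins with a C at its cap, followed by an uninterrupted run of C and T. Messages of this class encode ribosomal proteins and many translation factors, and their translation, and for part of them their stability, is known to depend on mTOR through the RNA-binding protein LARP1. The members cover several steps of protein synthesis. EEF1A1 delivers aminoacyl-tRNA to the ribosome, EEF1B2, EEF1D and EEF1G form the exchange complex that reloads it with GTP, and EEF2 moves the ribosome along the message. EIF3E is a subunit of the initiation complex eIF3, EIF4B assists the helicase eIF4A, and PABPC1 binds the poly(A) tail. TPT1 encodes the tumour protein TCTP, and NPM1 encodes nucleophosmin, a nucleolar protein that takes part in ribosome assembly.

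Start sites of 7 members were held in the RefSeq promoter table used here (GRCh38.p14), in 9 windows. The sequences that place the members in the TOP class are shown from 10 bases before the annotated start to 20 bases from it on, 5′ to 3′ on the transcribed strand, with the pyrimidine run that begins at the start in capitals (EEF1G has none and is shown for contrast). EEF1A1 lies at chr6:73521013-73521042 on the minus strand, EEF1B2 at chr2:206159885-206159914 on the plus strand, EEF2 at chr19:3985444-3985473 on the minus strand, EIF4B at chr12:53006446-53006475 on the plus strand, NPM1 at chr5:171387839-171387868 on the plus strand, TPT1 at chr13:45341164-45341193 on the minus strand and EEF1G at chr11:62573872-62573901 on the minus strand.
EEF1A1: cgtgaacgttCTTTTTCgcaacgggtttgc
EEF1B2: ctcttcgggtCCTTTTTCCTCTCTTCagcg
EEF2: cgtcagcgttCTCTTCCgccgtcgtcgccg
EIF4B: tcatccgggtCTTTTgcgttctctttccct
NPM1: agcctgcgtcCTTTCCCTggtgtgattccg
TPT1: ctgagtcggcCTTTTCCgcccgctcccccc
EEF1G: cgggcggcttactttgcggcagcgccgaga

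A start was counted as a TOP start where its first base was C and the next 4 bases were each C or T, read on the transcribed strand only. By this rule 6 of the 7 members had a TOP start, and EEF1G had none at its annotated start. The run was longest in EEF1B2, with 16 bases, and shortest in EIF4B, with 5 bases. EEF1B2 and NPM1 each had a further annotated start without such a run. Of all 35116 windows 4.07% held a TOP start, and 47 of 63 ribosomal protein genes with a window had at least 1. A match describes the letters at an annotated start and does not show where transcription began in these cells.

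Total counts were 67569576 to 68025163 in NC and 51738814 to 67793417 in siGDF15, with the lowest total in siGDF15 replicate 2. The targeted gene was checked first. GDF15 was at 22.4, 19.3 and 23.1 FPKM in NC and at 10.8, 10.5 and 10.7 FPKM after knockdown. The groups did not overlap, and the log2 fold change (siGDF15 over NC, throughout) was -0.92 ± 0.079 (SE; adjusted p = 2.4e-05, edgeR). Of the thyroid markers, PAX8, a thyroid transcription factor, was at 58.2, 64.9 and 54.3 FPKM in NC and rose to 80.4, 77.5 and 80.4 FPKM in siGDF15 (log2 fold change 0.53 ± 0.061, SE; adjusted p = 1.2e-04, edgeR), and FOXE1 was at 2.53 to 2.94 FPKM over the 6 libraries and did not pass the test. TG, which encodes thyroglobulin, was at no more than 0.219 FPKM, SLC5A5 and NKX2-1 were at no more than 0.0433 FPKM, and TSHR was not listed in the table. The epithelial keratin KRT18 was at 78.1 to 109 FPKM. Of the 5 epithelial markers 1 was called higher, CDH1, with a log2 fold change of 0.61 (adjusted p = 0.049, edgeR; median of the list 0.29), a call lost under 11 of 18 alternatives, and all 5 were called higher without NC replicate 3. The part of these markers in the members' changes was not tested. In bulk RNA, a change in the share of cells that carry a message and a change in its amount per cell cannot be told apart.

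Compared with NC, 7 of the 10 members were higher in siGDF15 at an adjusted p below 0.05 in edgeR's quasi-likelihood test, beside 30.0% of all tested genes. They were EEF2, EIF4B, PABPC1, EEF1G, EEF1A1, TPT1 and EIF3E, in order of their fold change. None was lower, beside 31.4% of all tested genes, and the count was also 0 at an unadjusted p below 0.05 and 0 in DESeq2. The remaining 3, EEF1D, EEF1B2 and NPM1, did not pass the test. The median log2 fold change was 0.56 over the 10 members and 0.0026 over all tested genes. With libraries scaled by their total count alone, all genes split into 2701 higher and 4679 lower against 3565 and 3721 with TMM factors, and 7 members were called higher in both. No member passed both the adjusted p and a log2 difference of 1 or more in size, beside 7.81% of all tested genes. The FPKM values of the groups did not overlap for 7 members. In counts scaled by library total and TMM factor the groups also did not overlap for 7 members, beside 67.9% of all tested genes by that measure.

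**Figure D1:**
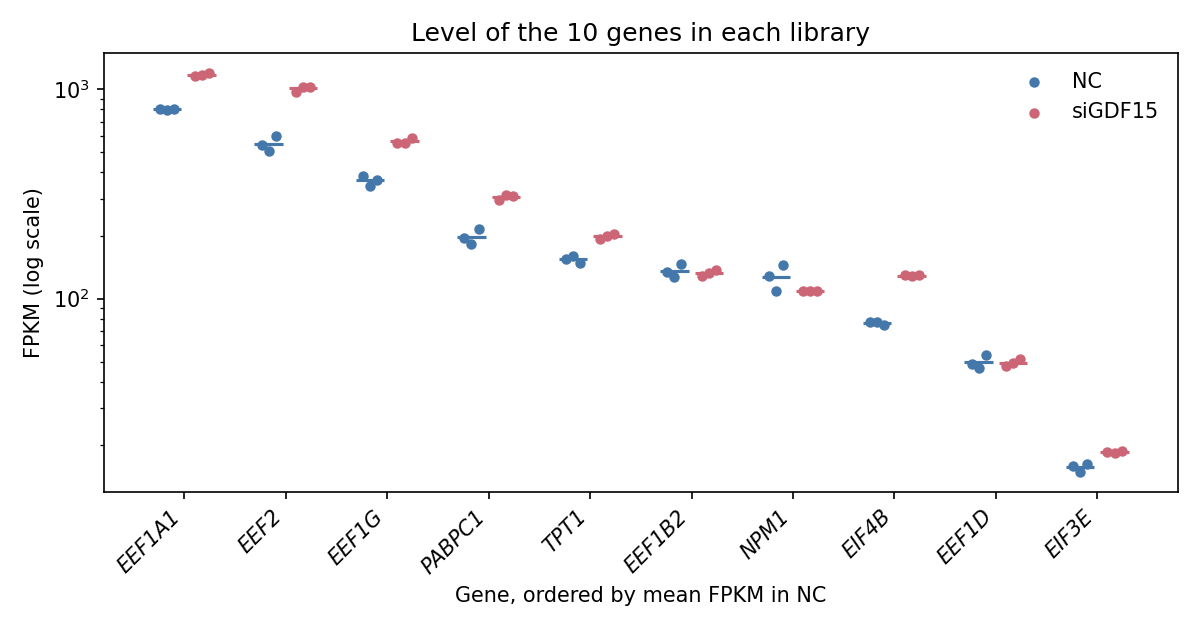
FPKM of each member in the 3 NC and 3 siGDF15 libraries on a log axis, 1 point per library and a line at the mean of the group. The groups stand apart for the 7 members called higher and overlap for EEF1B2, EEF1D and NPM1.

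The elongation factors split into 3 that rose and 2 that did not pass the test. EEF2 (ENSG00000167658, chr19:3976056-3985463, minus strand), the translocase, was at 539, 504 and 594 FPKM in NC and at 969, 1022 and 1029 FPKM in siGDF15. Every siGDF15 library was above every NC library. Its fold change was the largest among the members, 1.98-fold, or 0.99 ± 0.066 on the log2 scale (SE; adjusted p = 5.9e-06, edgeR). It was just short of a log2 fold change of 1, and it reached that size under 3 of 18 alternative settings, without NC replicate 3 (1.06), without siGDF15 replicate 1 (1.02) and with libraries scaled to the same median (1.04). EEF2 stood at rank 41 among all genes by mean FPKM in NC and at rank 27 in siGDF15.

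EEF1A1 (ENSG00000156508, chr6:73489308-73525587, minus strand), the tRNA carrier, had the highest level of the members, at 806, 797 and 806 FPKM in NC and 1159, 1161 and 1194 FPKM in siGDF15. The replicates lay close together, with a coefficient of variation of 0.650% in NC and 1.66% in siGDF15. The groups were separated by far more than this spread, with a log2 fold change of 0.65 ± 0.032 (SE; adjusted p = 1.5e-06, edgeR). The fitted fold of 1.57 is larger than the ratio of the mean FPKM values because the TMM factors, 1.03 to 1.04 in NC and 0.958 to 0.972 in siGDF15, rescale the totals of each library. MTO1, on the opposite strand, overlaps the far end of this span with 1257 to 2978 counts, against at least 600818 counts of EEF1A1. EEF1A1 alone held 47.4% ± 1.37 (SD, n = 3) of the members' counts in NC and 47.6% ± 0.395 (SD, n = 3) in siGDF15.

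EEF1G (ENSG00000254772, chr11:62559596-62574086, minus strand), the gamma subunit of the exchange complex, was at 386, 344 and 370.0 FPKM in NC and 551, 552 and 586 FPKM in siGDF15. All siGDF15 values were above all NC values, and the log2 fold change was 0.72 ± 0.054 (SE; adjusted p = 1.1e-05, edgeR). A second gene in the table, ENSG00000255508 (chr11:62559603-62591531), lies over the body of EEF1G on the same strand, so reads of the shared exons can be split between them. It had 10301, 16481 and 13133 counts in NC and 2913, 5686 and 2462 counts in siGDF15, opposite in direction to EEF1G, with a log2 fold change of -1.54 ± 0.39 (SE; adjusted p = 0.0090, edgeR). With the counts of both genes added, EEF1G was at 86796, 84543 and 86252 counts in NC and 111934, 89658 and 118220 counts in siGDF15. The sum still passed the test, with a smaller log2 fold change of 0.54 ± 0.042 (SE; adjusted p = 1.4e-05, edgeR). The sum was chosen after the data were seen.

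**Figure D2:**
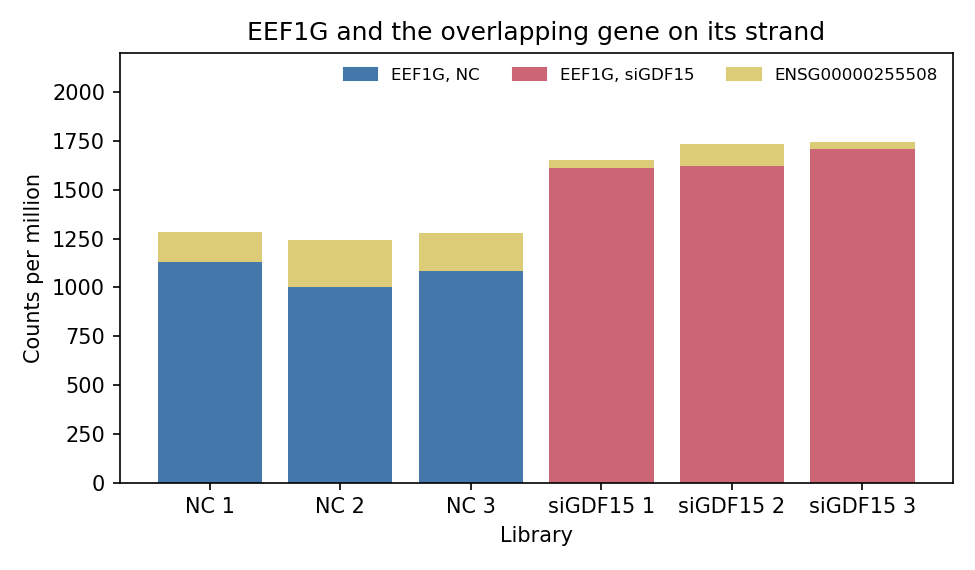
Counts of EEF1G and, stacked on them, of the gene that shares its strand and position (ENSG00000255508), scaled by the total count of each of the 6 libraries. The overlapping gene takes a larger part of the bar in NC (10301 to 16481 counts) than in siGDF15 (2462 to 5686 counts), and the whole bar is higher in every siGDF15 library.

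The other exchange factor subunits showed no such separation. EEF1B2 (ENSG00000114942, chr2:206159585-206162928, plus strand), the beta subunit, was at 134, 127 and 147 FPKM in NC and 128, 133 and 136 FPKM in siGDF15. The ranges overlapped, and the log2 fold change of 0.07 ± 0.063 (SE; adjusted p = 0.37, edgeR) did not pass the test. EEF1D (ENSG00000104529, chr8:143579697-143597679, minus strand), the delta subunit, was at 48.7, 46.4 and 53.7 FPKM in NC and 47.6, 49.3 and 51.6 FPKM in siGDF15, again overlapping. Its log2 fold change was 0.10 ± 0.065 (SE; adjusted p = 0.21, edgeR), and without NC replicate 3 it was 0.16, with an adjusted p of 0.023. An antisense gene, ENSG00000279605, overlaps EEF1D with 3267 to 4105 counts, and its reads can be told from those of EEF1D only where counting used strand, which is not given in the sources used here.

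Ratios of counts within a library do not depend on library scaling and show the unequal change directly. The ratio of EEF1A1 to EEF1B2 was 31.6, 32.9 and 28.9 in NC and 47.5, 45.8 and 45.9 in siGDF15, a 1.49-fold difference. The ratio of EEF1G to EEF1B2 was 3.96, 3.73 and 3.48 in NC and 5.92, 5.71 and 5.91 in siGDF15, a 1.57-fold difference. By contrast the ratio of EEF1D to EEF1B2 moved from 1.78, 1.79 and 1.80 in NC to 1.82, 1.82 and 1.85 in siGDF15, only 1.02-fold, although these groups too did not overlap. The ratio of EEF2 to EEF1A1 was 1.27-fold higher in siGDF15, and its groups did not overlap. The ratio of EEF1A1 to EEF1G overlapped between the groups (0.949-fold; exact permutation test, two-sided p = 0.3). Its direction depends on the overlapping gene: with ENSG00000255508 added to EEF1G the ratio was 7.02, 7.11 and 7.04 in NC and 7.81, 7.51 and 7.61 in siGDF15, 1.08-fold higher and without overlap, and the ratio of the summed EEF1G to EEF1B2 was 1.38-fold higher. These sums were added after the data were seen. Of 9 ratios compared, the other 8 did not overlap and reached p = 0.1 in the exact two-sided permutation test, the smallest value that 3 against 3 allows, or 0.1125 after Benjamini-Hochberg adjustment. No ratio could therefore pass 0.05 by this test.

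**Figure D3:**
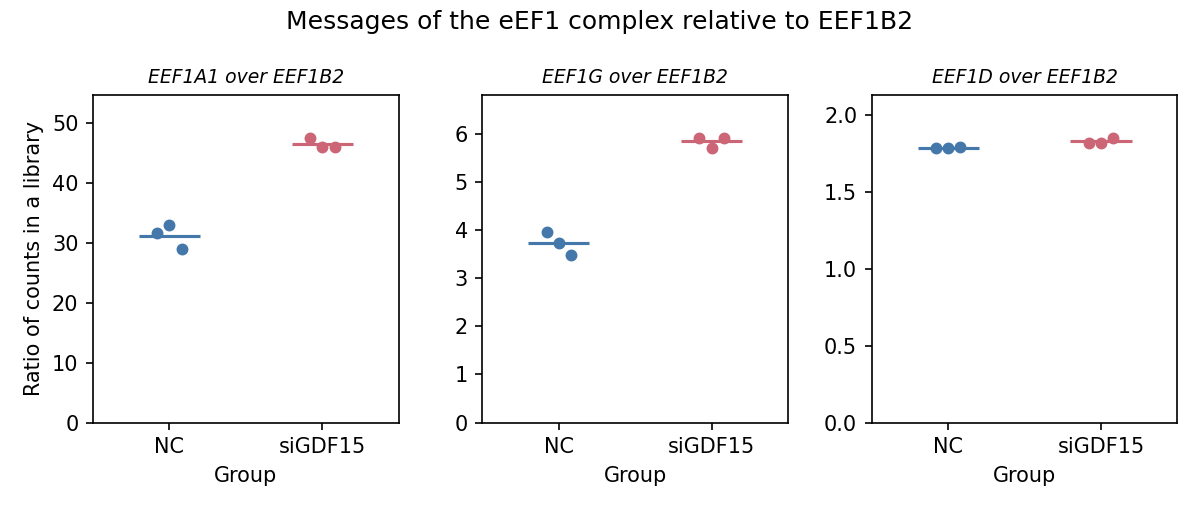
Ratio of the counts of EEF1A1, EEF1G and EEF1D to those of EEF1B2 within each library, by group, with 1 point per library and a line at the mean of the group. The first 2 ratios are higher in every siGDF15 library, and EEF1D over EEF1B2 lies between 1.78 and 1.85 in all 6 libraries.

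All 3 members that act at initiation rose. EIF4B (ENSG00000063046, chr12:53006282-53042215, plus strand), the cofactor of the helicase eIF4A, was at 77.1, 77.4 and 74.7 FPKM in NC and 129, 128 and 129 FPKM in siGDF15. The libraries of a group were nearly alike, and the groups lay far apart, with a log2 fold change of 0.86 ± 0.038 (SE; adjusted p = 9.2e-07, edgeR). EIF4B moved from rank 387 to rank 213 among all genes by mean FPKM. PABPC1 (ENSG00000070756, chr8:100685816-100722762, minus strand), the main cytoplasmic poly(A)-binding protein, was at 194, 182 and 214 FPKM in NC and 294, 311 and 310.3 FPKM in siGDF15. All siGDF15 libraries were above the NC libraries, and the log2 fold change was 0.74 ± 0.066 (SE; adjusted p = 3.0e-05, edgeR). EIF3E (ENSG00000104408, chr8:108162787-108443496, minus strand), the eIF3 subunit, was at 15.9, 14.9 and 16.3 FPKM in NC and 18.6, 18.4 and 18.8 FPKM in siGDF15. The change was the smallest among the 7 members called, with a log2 fold change of 0.35 ± 0.048 (SE; adjusted p = 3.2e-04, edgeR). The ratio of EIF4B counts to EIF3E counts was 1.42-fold higher in siGDF15, with no overlap between the groups.

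Of the remaining members, 1 rose and 1 did not pass the test. TPT1 (ENSG00000133112, chr13:45333471-45341284, minus strand) was at 154, 159.9 and 147 FPKM in NC and 193, 199.6 and 204 FPKM in siGDF15. The groups did not overlap, and the log2 fold change was 0.48 ± 0.045 (SE; adjusted p = 3.6e-05, edgeR). NPM1 (ENSG00000181163, chr5:171387116-171410887, plus strand) was at 128, 108 and 144 FPKM in NC and 109, 108 and 109 FPKM in siGDF15. It was the member with the widest spread in NC, a coefficient of variation of 14.01%, against 0.283% in siGDF15, and the siGDF15 values sat at the lower edge of the NC range. Its log2 fold change of -0.12 ± 0.093 (SE; adjusted p = 0.30, edgeR) did not pass the test, whereas without NC replicate 2 it was -0.22 with an adjusted p of 0.0067. The ratio of PABPC1 to NPM1 counts was 1.80-fold higher in siGDF15, with groups that did not overlap.

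**Figure D4:**
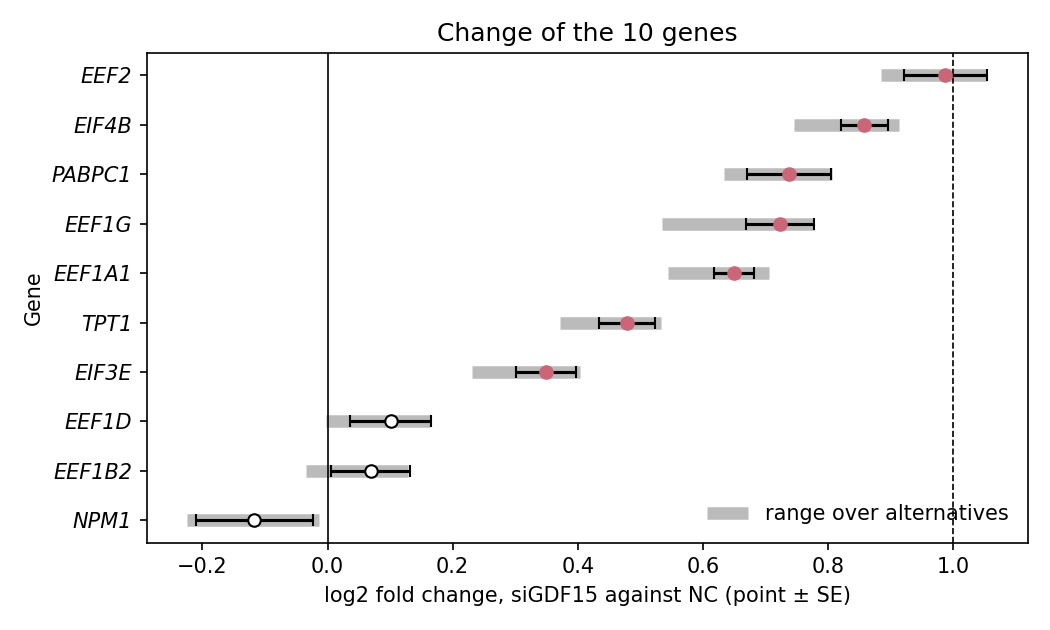
Log2 fold change (siGDF15 over NC) of each member from edgeR, with bars of 1 standard error, grey bands for the range over 18 alternative settings, filled points for members that passed the test and a dashed line at 1. EEF2 is highest at 0.99, NPM1 is lowest at -0.12, and the 3 open points lie nearest to 0.

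NC replicate 2 was the lowest and NC replicate 3 the highest of the NC libraries in FPKM for 7 of the 10 members. EEF1G, EIF4B and TPT1 were the exceptions. In EEF1A1, among these 7, NC replicates 1 and 3 were nearly equal, at 805.6 and 805.8 FPKM. The share of all tested genes with this order was not computed, so the order is not read as a trait of the members. The 5 epithelial markers had the same order of NC libraries. The part of this order in the results was not tested beyond leaving out each library, and the 7 members called higher passed the test in all 18 alternative settings.

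Levels between members can be compared only per length, and FPKM here is per base of all annotated exons of a gene. In NC the order of FPKM was EEF1A1, EEF2, EEF1G, PABPC1, TPT1, EEF1B2, NPM1, EIF4B, EEF1D and EIF3E. Neighbours in this order had ranges that did not overlap, except EEF1B2 and NPM1. In siGDF15 EIF4B stood above NPM1, and only the ranges of EEF1B2 and EIF4B overlapped. The low place of EIF3E depends on the length used. The deposited values imply 37730 bases for EIF3E, whereas its exons span 6005 bases in GENCODE release 29. The implied length was also well above the GENCODE exons for EEF1A1 (10052 against 5948 bases), PABPC1 (9536 against 4752) and NPM1 (8303 against 3828). Per base of its longest GENCODE transcript EIF3E ranked 6 of 10 in NC. By that measure NPM1 ranked 3 and EIF4B ranked 10. This does not touch the comparison between groups, in which the length of a gene is the same.

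Together the 10 members held 1.90, 1.81 and 1.95% of all counts in NC and 2.69, 2.76 and 2.79% in siGDF15, a difference of 0.859 percentage points. The groups did not overlap (p = 0.1, two-sided, by exact permutation, which is the smallest possible). Ribosomal protein genes moved the same way, from 4.69 to 5.02% in NC to 5.94 to 6.26% in siGDF15, and so did mitochondrially encoded genes, from 6.39 to 6.78% in NC to 8.53 to 9.17% in siGDF15. The part of the mitochondrial share in the members' share was not tested beyond removing these genes from the totals, which gave a difference of 0.989 percentage points. The counts of the members were 0.382, 0.386 and 0.389 times those of the ribosomal protein genes in NC and 0.453, 0.440 and 0.446 times in siGDF15, a 1.16-fold difference without overlap.

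Over all members 17 listed genes overlap a member, of which 14 had at most 201 counts in any library, and the other 3 are named above. Processed copies of the members share sequence with them, so counts can be split between a gene and its copies. By symbol 72 pseudogenes of the members were in the table, with 4.24% of the members' counts. The 3 with the most counts had fold changes close to those of their parent genes. EEF1A1P5 had 6.93% of the counts of EEF1A1 and a log2 fold change of 0.68, EEF1A1P6 had one of 0.62, and NPM1P27 one of -0.15, which did not pass the test (adjusted p = 0.26, edgeR). With the pseudogenes summed into the members, 7 were again called higher.

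The other genes of the TOP class and of the translation steps were read beside the members, from lists chosen with earlier results of these data known. Of 79 cytosolic ribosomal protein genes 73 were higher and 1 was lower, RPL22, with a median log2 fold change of 0.43. RPL17 and RPL3, of the large subunit, had the smallest adjusted p, with log2 fold changes of 0.78 and 0.64. Of 11 other genes with known TOP messages, 7 were higher and 1 was lower (median 0.26), and with total-count scaling 5 were higher and 3 lower. EIF3F and EIF3L, both subunits of eIF3, rose by 0.79 and 0.54 on the log2 scale. They and the other initiation factor genes of this list are counted again below, with the eIF3 subunits or the other initiation genes. These lists are therefore not independent. HNRNPA1, an RNA-binding splicing factor, fell by 0.41.

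**Figure D5:**
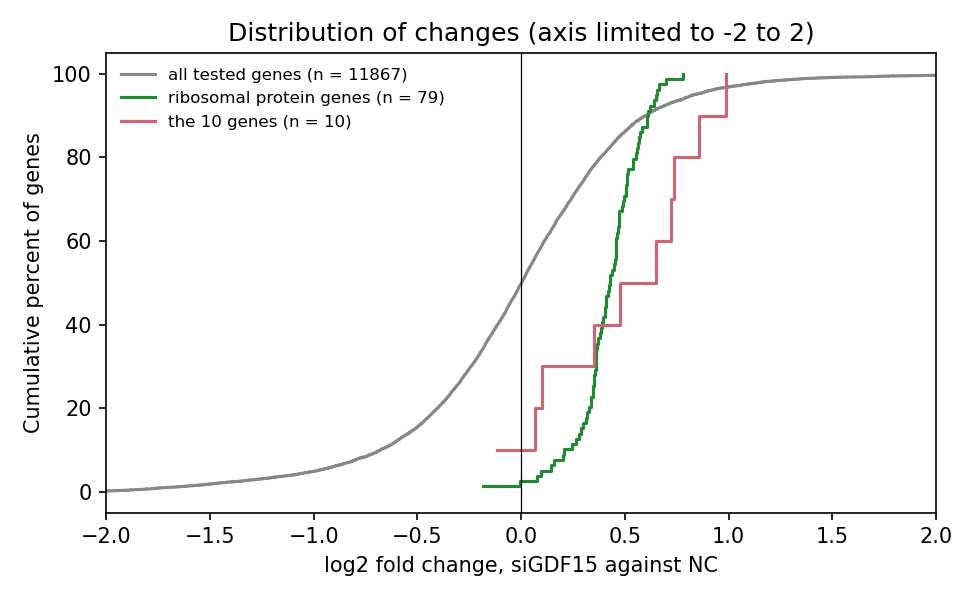
Cumulative percent of genes (vertical axis) against the log2 fold change, siGDF15 over NC, from -2 to 2 (horizontal axis), for all 11867 tested genes, the 79 ribosomal protein genes and the 10 members. The curves cross 50% near their medians, 0.0026 for all tested genes, 0.43 for ribosomal protein genes and 0.56 for the members.

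Genes with an annotated TOP start went both ways. Among tested genes with a TOP start 285 were higher and 191 lower of 691, with a median log2 fold change of 0.11. Without ribosomal protein genes and the members, 237 were higher and 190 lower of 638 (median 0.06), beside 2396 higher and 2715 lower of 8132 genes without a TOP start (median -0.02). With total-count scaling these became 180 higher and 243 lower (median -0.05), and 1762 higher and 3418 lower (median -0.12). Among the members, EEF1B2 and NPM1 have a TOP start and did not pass the test, and EEF1G has none by the rule and rose.

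Genes that act beside the members did not move as a block. Of 19 other tested elongation genes 3 were higher, 7 were lower and 9 did not pass the test (median -0.13), and with libraries scaled to the same median 4 were higher and 4 lower. EEF1A2, the paralog of EEF1A1, rose by 0.82 on the log2 scale, with a mean of 66.5 ± 1.45 FPKM in NC against 110 ± 1.54 FPKM after knockdown (SD, n = 3), and the ratio of EEF1A1 to EEF1A2 counts was 0.886 times that in NC. DPH3, needed for the diphthamide of eEF2, also rose (0.64). EEF2KMT, which methylates eEF2, fell by 0.97 on the log2 scale, and METTL13, which methylates eEF1A, fell by 0.32.

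Of 13 genes for eIF3 subunits other than EIF3E, 7 were higher and 2 were lower (median 0.18), and with total-count scaling 5 were higher and 3 lower. Those lower were EIF3C and EIF3CL, near-identical copies whose counts can be split between them, with log2 fold changes of -0.27 and -0.22. The call of EIF3CL was lost under 3 of 18 alternatives. Of 27 other tested initiation genes 7 were higher and 8 lower (median -0.0044), and with total-count scaling 4 were higher and 13 lower. EIF4A2, a helicase that EIF4B assists, rose by 0.39 and EIF1, a start codon selection factor, by 0.34 on the log2 scale. EIF4E, the cap-binding protein, was at 17.8, 16.3 and 18.1 FPKM in NC and 8.85, 7.36 and 8.47 FPKM in siGDF15. These groups did not overlap, and the log2 fold change was -0.98 ± 0.074 (SE; adjusted p = 1.2e-05, edgeR), opposite to the initiation factors among the members. EIF2B3, a subunit of the exchange factor of eIF2, fell by 0.57.

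Of 5 tested genes for poly(A)-binding proteins and partners of PABPC1, 2 were higher and 2 lower. PAIP2 and PAIP1, proteins that bind PABPC1, rose by 0.37 and 0.29 on the log2 scale. PABPC1L, a paralog, fell by 1.29 and PABPN1, the nuclear poly(A)-binding protein, by 0.41. PABPC4, the other widely expressed paralog, had a log2 fold change of 0.23 ± 0.11 (SE; adjusted p = 0.11, edgeR). Of 5 tested termination and recycling genes ETF1, the release factor that recognises stop codons, was higher at 0.22, a call lost under 8 of 18 alternatives, and ABCE1, the ribosome recycling ATPase, was lower at -0.37. With total-count scaling none of the 5 was higher and 3 were lower.

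Regulators of TOP messages and of the mTOR pathway went both ways. Of 23 tested genes 8 were higher and 7 lower (median -0.08), and with total-count scaling 3 were higher and 13 lower. LARP1, which binds the TOP start, averaged 23.2 ± 1.69 FPKM in NC against 20.3 ± 0.517 FPKM after knockdown (SD, n = 3), and its log2 fold change of -0.08 did not pass the test (adjusted p = 0.26, edgeR). Its paralog LARP1B rose by 0.81 on the log2 scale, and DEPTOR, an inhibitor of mTOR, by 0.73. MTOR itself fell by 0.30. EIF4EBP1, the repressor of EIF4E that mTOR phosphorylates, was at 157, 148 and 168 FPKM in NC and 70.5, 72.5 and 69.4 FPKM in siGDF15. All siGDF15 values lay below all NC values, with a log2 fold change of -1.05 ± 0.060 (SE; adjusted p = 2.8e-06, edgeR). EIF4EBP2 fell by 0.68. These are RNA levels, and neither the activity of mTOR nor translation was measured.

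Among the 5 genes whose log2 CPM (counts scaled by library size) over the 6 libraries was most like that of EEF1A1 were SNHG32, EZH1, LEPROT and TMEM104. Their Pearson's r was 0.9994 to 0.9998 over 6 libraries, given as a description, because the libraries form 2 separate groups that set most of the correlation. None of these genes is a member or a gene of the lists above.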

How the data were processed

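Total RNA was selected for poly(A), made into strand-marking libraries and sequenced as pairs of 150 bases on a NovaSeq instrument. The submitters' processing notes name fastp, HISAT2, StringTie, edgeR and GRCh38. Versions and the annotation release are not given in the sources used here. The authors deposited FPKM values, scaled by exon length and library size, and expected counts, whole numbers without normalization. Every library total of these counts is above the average read depth that the study's methods state, so a count need not stand for 1 fragment. The effect of this on the SE and p-values was not examined. FPKM served for levels and for the filter (mean of at least 1 over the 6 libraries). The expected counts were tested with edgeR 4.0.16 (R 4.3.3): TMM factors, quasi-likelihood F test of siGDF15 against NC, Benjamini-Hochberg adjustment over 11867 genes, and SE taken as the fold change divided by the square root of F. The script was tested on simulated data.

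The members and gene lists were chosen with earlier results of these data known, so no list was tested as a set. All members were described. Of each other list, the 2 genes with the smallest adjusted p in each direction could be named, with EEF1A2, PABPC4, NPM3, LARP1, MTOR and EIF4EBP1, the 3 pseudogenes with most counts, and the 5 genes most like EEF1A1. Alternatives were other scalings, limma 3.58.1 on log2 FPKM with a pseudocount of 1 or 0.1, DESeq2 1.42.0, other filters, a replicate block, left-out libraries, pseudogenes summed into members and mitochondrial genes removed. No 2 libraries were identical. Some genes that these rules would name are not reported here.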

Additional observations from a re-analysis of the deposited data

How the results depend on the processing

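Over 18 alternatives 172 of 180 log2 fold changes of members kept their direction and their side of the threshold. The signs that turned belonged to EEF1B2 (-0.033 with total-count scaling, -0.034 with limma and a pseudocount of 1, -0.034 with 0.1) and EEF1D (-0.00065, -0.0019 and -0.0019), neither of which passed the test under these settings. EEF1D without NC replicate 3 (0.16) and NPM1 without NC replicate 2 (-0.22) passed it. Members called lower were 0 to 1 with a library left out (1 without NC replicate 2), and members past both thresholds were 0 to 1 (EEF2 without NC replicate 3 or siGDF15 replicate 1) and 1 with libraries scaled to the same median. The difference in the members' share was 0.989 percentage points without mitochondrially encoded genes. The cause of these shifts was not tested. The median of the members was 0.46 to 0.62. Deviations of same-numbered libraries correlated at -0.075 to 0.046, and those of differently numbered libraries at -0.135 to 0.089. Replicate numbers thus gave no sign of pairing, but so few libraries cannot show that there was none. With a replicate block 7 members were called higher, 0 lower and 0 past both thresholds, while over all genes 3391 were higher and 3515 lower. With 3 libraries a group, no exact permutation test can go below p = 0.1.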

Other observations

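Genes of the nucleolus and of ribosome assembly were read beside NPM1, as a group that belongs to no comparison above. Of 14 tested nucleolar and ribosome assembly genes, 1 was higher, 3 were lower and 10 did not pass the test (median log2 fold change -0.10). With total-count scaling 1 was higher and 6 lower, and with libraries scaled to the same median 2 were higher and 2 lower. FBL, the methyltransferase of box C/D small nucleolar RNPs, fell from 64.2 ± 5.28 to 45.3 ± 1.19 FPKM (SD, n = 3), by 0.40 on the log2 scale. UBTF, a transcription factor of RNA polymerase I, fell by 0.29. NPM3, the paralog of NPM1, averaged 25.1 ± 3.14 FPKM in NC against 19.2 ± 1.48 FPKM after knockdown (SD, n = 3), with a log2 fold change of -0.28 and an adjusted p of 0.045 in edgeR, a call lost under 7 of 18 alternatives. NOP10, a component of box H/ACA small nucleolar RNPs, rose by 0.34. NCL, which encodes nucleolin and was chosen after its values were seen, was at 104 FPKM in NC and 82.6 FPKM in siGDF15, and its log2 fold change of -0.23 did not pass the test (adjusted p = 0.063, edgeR).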
